A study of Mus musculus with 4 samples.

Results

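The regions described here are highly methylated regions of the wild-type hair matrix genome that a table of regions lists. They were taken from the authors' deposited table of regions compared between wild-type (WT) mice and mice without Tet2 and Tet3 (double knockout, DKO). A region was kept when it lay on chromosomes 1 to 19, held at least 10 measured cytosine positions and had a WT methylation level of 80% or more. The rule kept 92738 of the 484555 regions in the table (19.1%), or 43.9% of the 211368 autosomal regions with at least 10 positions. They cover 63.6 Mb and 5.45% of the positions that the table numbers, so they are a selected fraction of the highly methylated genome. The median region was 589 bp long (interquartile range 388 to 872) and held 18 positions, at a density of 3.17 positions per 100 bp. Positions on the strands of a CpG were mostly counted apart, so 18 positions are fewer CpGs than 18.

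Whole-genome bisulfite sequencing had been run on sorted hair matrix keratinocytes, the dividing epithelial cells of the hair bulb that give rise to the hair shaft, at postnatal day 4.5. The groups were 2 WT libraries and 2 DKO libraries. The DKO mice lack Tet2 and Tet3 through Krt14-Cre, a Cre recombinase under the keratin 14 promoter, which is active in basal epithelial cells and their descendants; the deletion is therefore shared by the skin epithelium and is not limited to the hair matrix. The labels name no change in Tet1. They leave unsaid if each library was a different mouse, and which Cre or floxed alleles the WT mice carried. Methylation levels alone could not check the labelled cell type against marker gene expression.

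TET enzymes oxidise 5-methylcytosine to 5-hydroxymethylcytosine and further forms, a step on the way back to unmethylated cytosine. Most CpGs of a mammalian genome outside CpG islands and active regulatory elements are highly methylated, in gene bodies as well as between genes. DNMT1 copies this state at cell division, with UHRF1 as its recruiting partner, while DNMT3A and DNMT3B add new methylation. Bisulfite conversion reads 5-methylcytosine and 5-hydroxymethylcytosine alike, so every level given here is their sum.

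Gene start sites are usually unmethylated, and few lay in these regions. Windows of 300 bases around RefSeq gene starts (250 before to 50 after, GRCm38.p6) were compared with the regions. Of 20084 autosomal windows of protein-coding genes, 249 (1.24%) were overlapped by a highly methylated region and 95 (0.473%), from 92 genes, lay wholly inside one. The 95 windows held a median of 4 CG dinucleotides (interquartile range 3 to 7), against 14 (4 to 25) over all 20084. Their DKO minus WT differences ran from -9.91 to 7.22 percentage points with a median of -0.570. The windows with the most CG, with the largest losses and with the largest gain are printed, chosen after their values were seen, because they show how different in CG content the methylated starts are. Each is written 5′ to 3′ along the gene with every CG in capitals.
Ddx4 start window, chr13:112652261-112652560, minus strand: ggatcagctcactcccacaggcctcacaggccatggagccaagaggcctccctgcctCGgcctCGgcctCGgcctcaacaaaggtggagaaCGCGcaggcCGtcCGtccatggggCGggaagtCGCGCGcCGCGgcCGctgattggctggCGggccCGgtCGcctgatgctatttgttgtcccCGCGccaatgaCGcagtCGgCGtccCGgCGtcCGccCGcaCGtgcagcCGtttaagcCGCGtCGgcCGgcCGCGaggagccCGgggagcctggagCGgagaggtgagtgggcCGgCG
Mael start window, chr1:166238695-166238994, minus strand: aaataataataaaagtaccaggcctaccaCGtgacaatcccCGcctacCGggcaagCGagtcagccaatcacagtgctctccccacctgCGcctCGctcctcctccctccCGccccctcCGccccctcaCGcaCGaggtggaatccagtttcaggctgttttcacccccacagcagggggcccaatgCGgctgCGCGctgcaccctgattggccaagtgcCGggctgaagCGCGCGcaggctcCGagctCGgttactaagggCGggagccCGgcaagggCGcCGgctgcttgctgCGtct
Ssu2 start window, chr6:112387974-112388273, minus strand: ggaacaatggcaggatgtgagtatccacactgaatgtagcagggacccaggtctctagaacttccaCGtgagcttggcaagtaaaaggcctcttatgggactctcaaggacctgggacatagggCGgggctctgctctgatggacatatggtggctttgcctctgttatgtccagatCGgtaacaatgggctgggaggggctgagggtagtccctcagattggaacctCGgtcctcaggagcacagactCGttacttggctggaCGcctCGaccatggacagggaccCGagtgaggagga
Arsg start window, chr11:109543461-109543760, plus strand: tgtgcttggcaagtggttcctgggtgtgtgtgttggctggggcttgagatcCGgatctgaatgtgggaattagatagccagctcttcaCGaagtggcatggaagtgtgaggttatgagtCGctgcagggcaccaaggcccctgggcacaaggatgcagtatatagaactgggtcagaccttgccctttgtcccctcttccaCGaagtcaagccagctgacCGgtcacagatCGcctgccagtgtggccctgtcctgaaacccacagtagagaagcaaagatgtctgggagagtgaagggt

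The Ddx4 window, at the start of a germ-cell RNA helicase gene, held 38 CG. In the authors' deposited table, the region around it had 136 positions, and its level was 86.0% in WT and 76.1% in DKO, a difference of -9.91 points. The Mael window, at the start of a gene for a protein of the germline piRNA pathway, held 24 CG. Its region stood at 85.1% in WT and 86.5% in DKO in the authors' deposited table. The Ssu2 window had 8 CG and its region stood at 83.7% in WT and 78.0% in DKO in the authors' deposited table. The Arsg window, at a lysosomal sulfatase gene, had 6 CG, and its region was at 84.9% in WT and 92.1% in DKO in the authors' deposited table. A start with 38 CG and a start with 8 CG were thus among those that were lower in DKO. The germline starts of high CG content differed by -9.91 points in Ddx4 and by 1.38 points in Mael.

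Whole miRNA hairpins were found in the regions as well. Of 919 autosomal RefSeq hairpins, 40 (4.35%) lay wholly inside one, with differences from -9.28 points (Mir680-3) to 4.72 points (Mir6368), a median of -0.406 and 22 of 40 lower in DKO. The hairpins named next were chosen after their values were seen. Of the hairpins of the imprinted Dlk1-Dio3 cluster on chromosome 12, 4 in 4 separate regions between positions 109709060 and 109743236 lay inside, and each was lower in DKO. The level over Mir379 was 92.7% in WT and 87.6% in DKO in the authors' deposited table. Over Mir154 the authors' deposited table gives 90.2% and 85.6%. For Mir495 the values in the authors' deposited table are 89.6% and 85.8%, and for Mir409 they are 89.7% and 87.2%. One mature miRNA of each is printed with its seed, bases 2 to 8 from the 5′ end, in capitals. The 8 mature miRNAs of these hairpins have 8 different seeds, so the hairpins share a neighbourhood and not a seed.
miR-379-5p: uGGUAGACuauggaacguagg
miR-154-5p: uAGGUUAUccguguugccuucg
miR-495-3p: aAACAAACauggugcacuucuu
miR-409-3p: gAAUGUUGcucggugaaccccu

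The region over Mir21a, a widely expressed epithelial miRNA, was at 82.8% in WT and 84.2% in DKO in the authors' deposited table. The region over Mir26a-1 stood at 80.02% and 81.6%, and the region over Mir29b-1, whose mature miRNA targets collagen and DNMT3 transcripts, at 88.8% and 86.3% in the authors' deposited table. The differences at these miRNAs lie inside the range that most highly methylated regions occupy.

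Levels in the highly methylated regions were nearly the same in both genotypes. The median level was 86.8% in WT (interquartile range 83.8 to 89.8) and 86.6% in DKO (82.7 to 89.9). The median difference, DKO minus WT, was -0.858 points, with an interquartile range of -2.90 to 1.15, and the 1st and 99th percentiles were -8.80 and 7.39 points. In 86.8% of the regions the genotypes were within 5 points of each other. Of all regions, 56861 (61.3%) were lower in DKO and 35877 were higher, where 42.6% of all autosomal regions with at least 10 positions were lower. These shares are not like for like. The table's signed statistic was positive in every highly methylated region but negative in 65700 of all autosomal regions with at least 10 positions. Of the 145668 such autosomal regions with a positive statistic, 55586 were higher in DKO. Since the highly methylated regions were chosen by the WT level, their values describe them and no test was made of their direction. When regions were chosen by a DKO level of 80% or more in place of WT, the median difference was 0.800 points and 41.5% were lower. Regions with a WT level of 60 to 80%, 42168 in number, had a median difference of -0.915 points but a wider interquartile range, from -4.16 to 4.69. Autosomal regions outside the highly methylated class had a median difference of 21.8 points, which the table's choice of regions shapes as well.

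**Figure D1:**
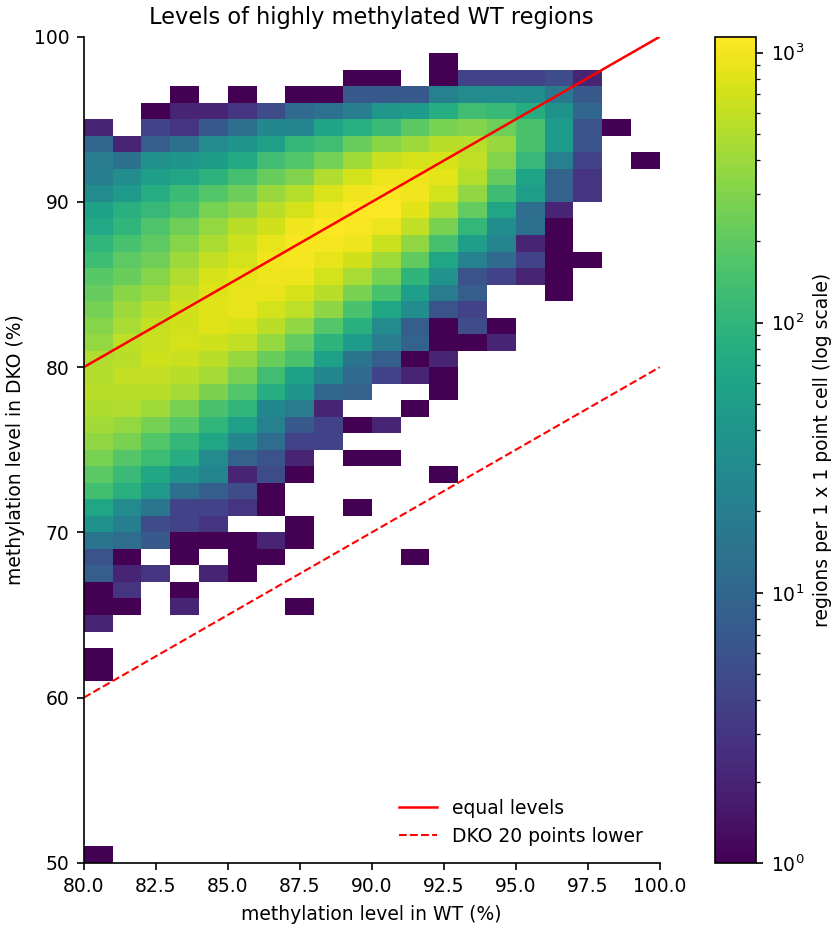
Each cell of 1 by 1 point counts highly methylated regions by WT level (x axis, %) and DKO level (y axis, %) on a log colour scale, brighter where more regions fall; the solid line marks equal levels and the dashed line a DKO level 20 points lower. The regions run along the diagonal, at a median of 86.8% in WT and 86.6% in DKO, with a thin scatter of losses under it that reaches a DKO level of 50.03%.

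The deposited table gives one level per genotype and no value per library, so the spread between replicates is unknown and so is the depth behind a level. What stands closest to an error is the table's own spread estimate for each region, with a median of 3.62 points among these regions and a range of 3.13 to 10.2. Regions of a chromosome can share its lowest value, as those at Dmrtb1, Mutyh and Mir697 on chromosome 4 do at 3.31 points. The estimate is therefore not wholly a region's own error. By the spread estimate, 1960 of the 92738 regions were lower in DKO by more than 2 spread estimates and 891 were higher. Of all 211368 autosomal regions with at least 10 positions, 4906 were lower by that much and 69062 were higher. A typical difference is smaller than 1 spread estimate and cannot be told from 0 in a single region.

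The table's statistic bears on what the regions can show. Every one of the 92738 regions has a positive extreme statistic, from 1.54 to 10.9 with a median of 2.28, the sign the table otherwise gives to lower DKO levels, although 35877 of them have a higher mean in DKO. No region of the whole table has an extreme statistic between -4.02 and 1.53. Divided by the number of positions, the statistic exceeded the ratio of the WT minus DKO difference to the spread estimate by a median of 1.84, or 6.82 points of methylation. An extreme statistic of 4 was reached by 4375 of the highly methylated regions (4.72%). Among all autosomal regions with at least 10 positions it was reached by 8588 (4.063%). Those 8588 all lay among the 145668 regions with a positive statistic. When the bound of 4.02 was applied to both signs, 4224 highly methylated regions were left, with a median difference of 0.159 points.

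The median difference was negative over the whole range of WT levels. The 31955 regions with WT levels of 80 to 85% had a median of -1.03 points, with 60.2% lower in DKO. From 85 to 90% the median over 38850 regions was -0.613 points, with 58.1% lower. From 90 to 95% it was -0.975 points over 21021 regions, with 67.8% lower, and from 95 to 100%, where a gain has little room, it was -1.93 points over 912 regions, with 89.9% lower. Regions less than 0.5 points above the 80% bound in WT had a median of -1.26 points (2536 regions), and those up to 0.5 points under it had -1.36 points (2357 regions).

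Between genes the highly methylated regions were lower in DKO by a slightly larger amount than inside genes. Protein-coding genes held 50344 of the regions (54.3%), with median levels of 87.4% in WT and 87.5% in DKO. Their median difference was -0.612 points (interquartile range -2.50 to 1.33), and 58.4% were lower. Between genes lay 39792 regions (42.9%), with median levels of 86.1% in WT and 85.4% in DKO. The median difference there was -1.21 points (-3.42 to 0.936), and 64.8% were lower. Within 1 kb of a gene's start or end lay 2602 regions (2.81%, against 5.96% of all autosomal regions with at least 10 positions), with a median of -0.994 points. The distributions overlap almost completely, and the gap between the medians inside and between genes is well under the median spread estimate.

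The order was the same at each WT level. From 80 to 85% the median was -0.553 points inside and -1.48 points between genes. From 85 to 90% the values were -0.341 and -0.943 points, from 90 to 95% -0.849 and -1.28 points, and from 95 to 100% -1.84 and -2.63 points. In the regions of 60 to 80% WT level, the median was 0.165 points inside genes and -1.79 points between them.

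Distance from genes continued the gradient. Regions between genes had a median of -0.842 points within 10 kb of the nearest protein-coding gene, -0.999 points from 10 to 50 kb, -1.21 points from 50 to 200 kb and -2.36 points at 200 kb or more. The 2391 regions with no midpoint of a protein-coding gene within 500 kb on either side, some of which lie inside a long gene, had a median of -3.88 points. Their offset in the statistic, 3.64 points, was also smaller than the 6.82 points over all highly methylated regions. Its part in the difference was not tested.

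The median difference was more negative in CpG-poor than in CpG-rich regions. The 11551 regions with 1 to 2 positions per 100 bp had a median difference of -1.56 points, and the 30044 with 2 to 3 had -0.889 points. The 34895 regions with 3 to 5 positions per 100 bp had -0.710 points, and the 16201 with 5 or more had -0.707 points. Only 47 regions had under 1 position per 100 bp, with a median of -5.45 points. Median WT levels were higher at higher density, from 84.4% in the poorest through 85.5%, 86.4% and 87.2% to 88.1% in the richest, so density and level move together here. The share of regions between genes was 53.04% at 1 to 2 positions per 100 bp and 38.25% at 5 or more. From 1 to 2 positions upward, the medians inside genes were -1.21, -0.678, -0.510 and -0.422 points. Between genes they were -1.84, -1.17, -0.989 and -1.17 points, with no steady trend from 2 positions upward. The gap between the classes of 1 to 2 and of 5 or more positions per 100 bp was 0.855 points, and it was 0.200 points over regions with at least 20 positions.

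**Figure D2:**
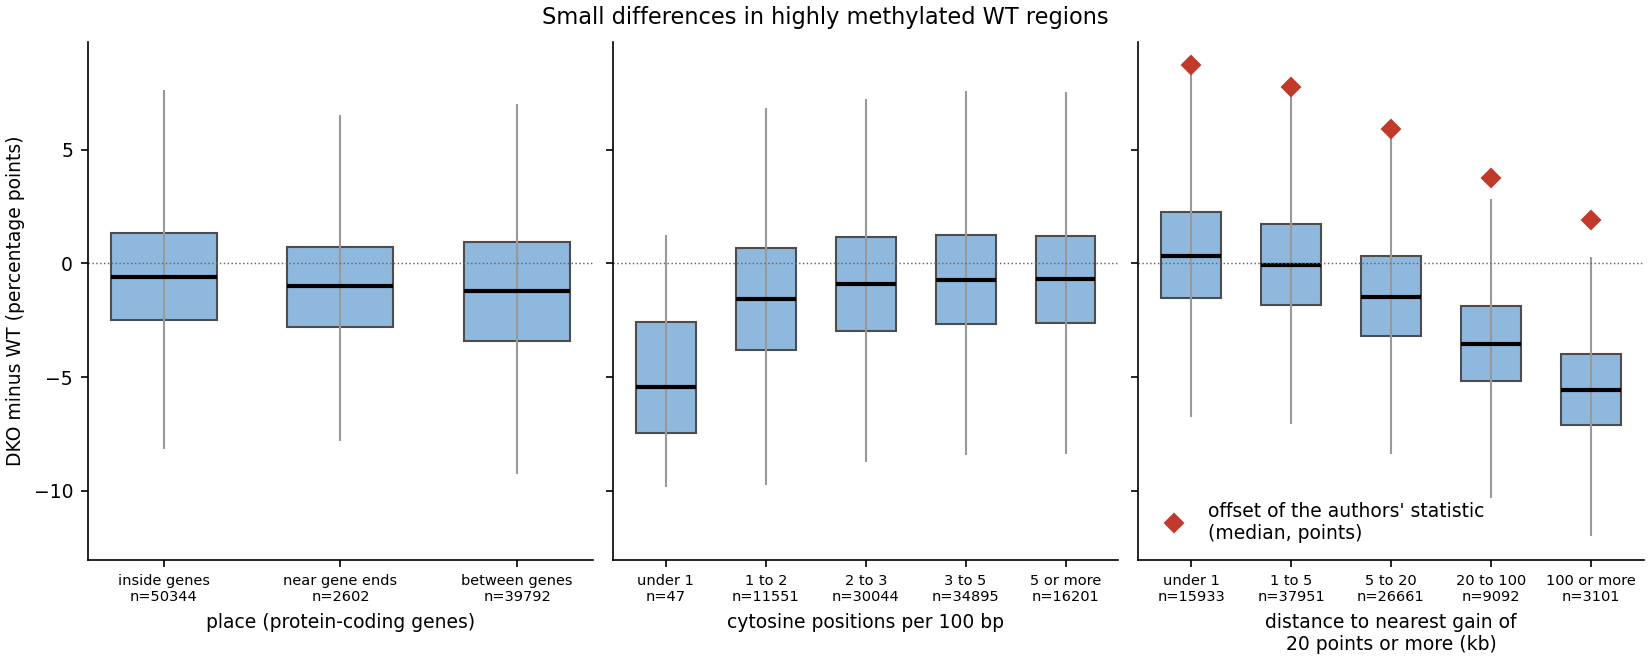
DKO minus WT difference (percentage points, y axis; black line, median; box, interquartile range; thin line, 1st to 99th percentile) for highly methylated regions by place relative to protein-coding genes, by positions per 100 bp and by distance to the nearest gain of 20 points or more; n is the number of regions and red diamonds give the median offset of the statistic in points. The median is -0.612 points inside and -1.21 points between genes, and goes from 0.333 to -5.57 points with distance from a gain.

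The difference varied with how far a highly methylated region lay from a region with a large gain. The table holds 110564 autosomal regions, with any number of positions, that were higher in DKO by 20 points or more. None of them was highly methylated in WT, because a gain of that size is not possible above 80%. The median highly methylated region lay 3.78 kb from such a gain. The 15933 regions within 1 kb had a median difference of 0.333 points, with 44.9% lower in DKO. From 1 to 5 kb the median was -0.0851 points (37951 regions), and from 5 to 20 kb it was -1.47 points (26661 regions). The 9092 regions at 20 to 100 kb had -3.54 points, and the 3101 regions at 100 kb or more had -5.57 points, with 98.5% lower. At 100 kb or more the median levels were 84.3% in WT and 79.1% in DKO, whereas within 1 kb they were 87.5% and 88.5%.

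The statistic's offset moved with this distance. It was 8.71 points within 1 kb, 7.76 points from 1 to 5 kb, 5.92 points from 5 to 20 kb, 3.74 points from 20 to 100 kb and 1.89 points at 100 kb or more. The mean statistic per position stayed between 1.90 and 2.22 over the same classes. Where the offset was smaller the listed regions had larger losses, so the difference and the condition for being listed cannot be told apart. Inside genes the gradient ran from 0.437 to -5.24 points and between genes from 0.205 to -5.67 points. In each of the 5 distance classes the median between genes was the lower one, most of all at 20 to 100 kb, where it was -3.88 points against -3.19 points inside.

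Neighbouring regions had similar differences. Consecutive regions less than 1 kb apart had differences correlated at Pearson's r = 0.711 (10037 pairs), and r was 0.629 at 1 to 5 kb (21810 pairs), 0.497 at 5 to 20 kb (34448 pairs) and 0.364 at 20 kb or more (26424 pairs). All pairs share the libraries and consecutive pairs share a region, so these correlations are descriptions across regions that are not independent. The median gap between consecutive regions was 9225 bp.

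Along genes the difference grew from start to end. Each highly methylated region inside a protein-coding gene of at least 5 kb was placed in one of 10 equal parts of the gene, which gave 40972 pairs of region and gene in 8293 genes. In the first part the median was -0.301 points, with 53.8% of the regions lower. In the last part it was -0.976 points, with 64.6% lower. Regions were also fewer in the first part (6.90% of the pairs) than in the last (11.8%). By gene length the median was -0.752 points in genes under 10 kb, -0.788 points from 10 to 50 kb, -0.405 points from 50 to 200 kb, -0.496 points from 200 to 500 kb and -1.45 points in genes of 500 kb or more.

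**Figure D3:**
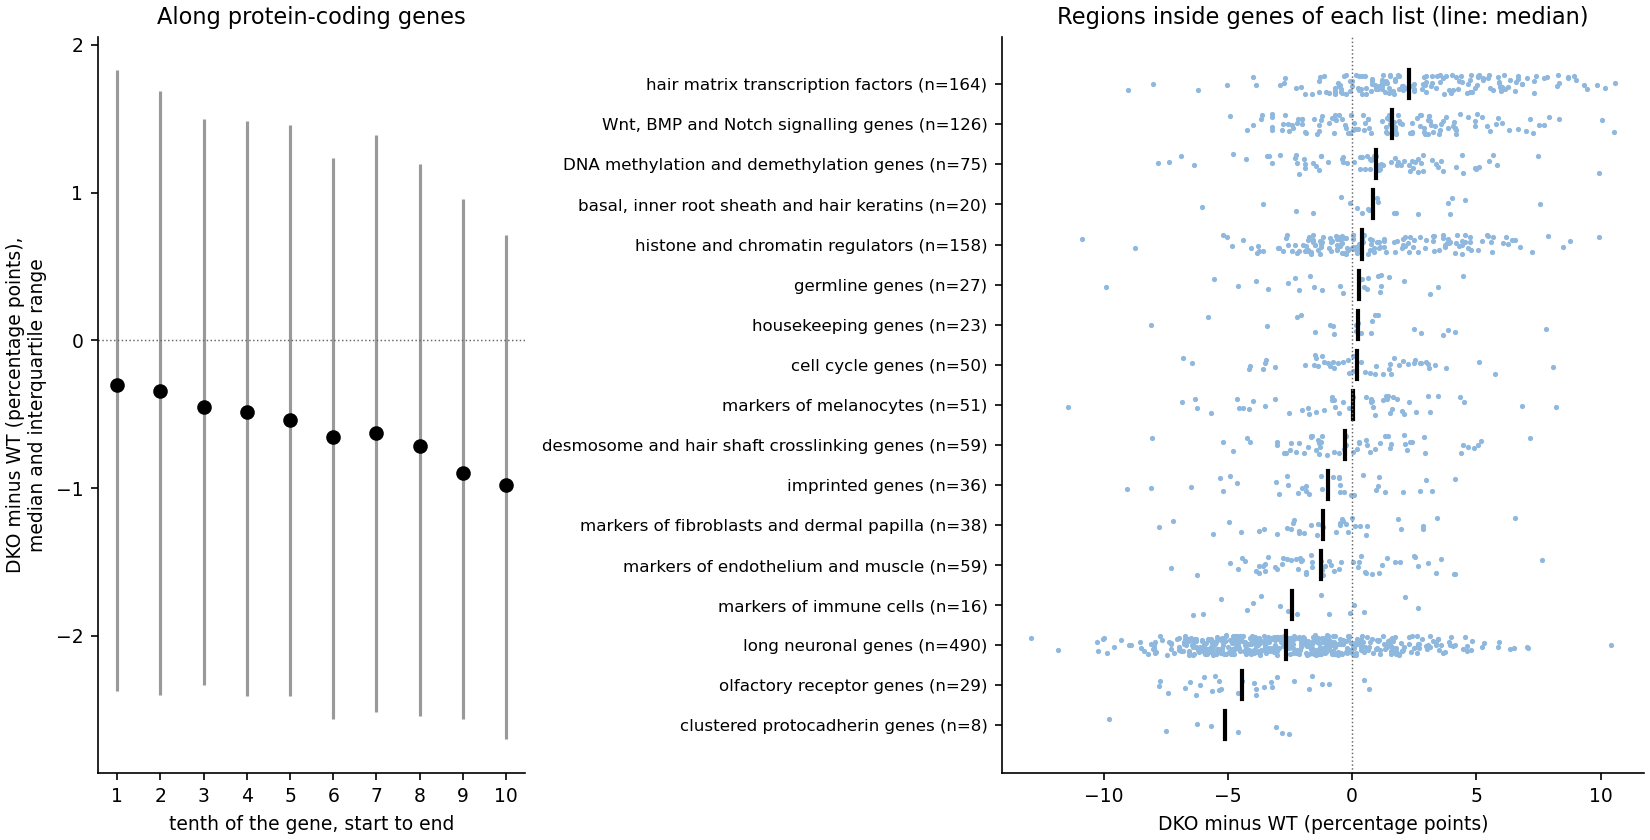
Left, median DKO minus WT difference (percentage points, bars give the interquartile range) of highly methylated regions in 10 equal parts of protein-coding genes from start to end; right, the difference of each region (points) inside the genes of each list, with a line at the list's median. The medians move from -0.301 to -0.976 points along genes, and the lists run from 2.29 points for hair matrix transcription factors to -5.13 points for clustered protocadherins.

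Of 20661 autosomal protein-coding genes, 10835 (52.4%) held at least 1 highly methylated region. The 5284 genes with at least 3 had gene medians from -10.7 to 9.36 points, with a median of -0.574 points (interquartile range -2.02 to 0.780) and 60.9% of them under 0. Long genes held the most regions. Auts2, a regulator of neuronal development, held 105 with a median of 1.19 points. Wwox, an oxidoreductase gene at a fragile site, held 104 with a median of -1.46 points. Foxp1, a forkhead transcription factor, held 101 with a median of 1.53 points, and Rbms3, which encodes an RNA-binding protein, held 95 with -0.666 points. Cdh13, a cadherin without a cytoplasmic tail, had -2.57 points over 91 regions, and Sox5 had -1.88 points over 88. Lrmda had 1.02 points over 86 regions, and Prkce, a protein kinase C gene, had 1.36 points over 77. These 8 genes stood on either side of 0, with 4 medians above and 4 under it.

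Inside the genes of hair and epithelial regulators the highly methylated regions were more often higher in DKO. Of 25 transcription factors of the hair matrix, 17 held 164 regions, and 34 of these (20.7%) were lower in DKO. Their median difference was 2.29 points, against -0.612 points over all regions inside genes. In Bcl11b, a zinc finger factor of skin and T cells, 3 regions had a median of 7.31 points, from a median level of 86.1% in WT to 93.4% in DKO. Nfatc1, known in hair follicle stem cells, was at the other end of the list, with 14 regions and a median of 0.201 points. The regions of this list lay at a median of 2.17 kb from large gains, against 3.48 kb over all regions inside genes. For lists described below, this distance was 1.65 kb for keratins, 2.07 kb for desmosome and crosslinking genes and 2.16 kb for Wnt, BMP and Notch signalling genes. The part of this distance was not tested. For Wnt, BMP and Notch signalling genes, 19 of 28 held 126 regions with a median of 1.60 points, and 34.1% were lower. Bmpr1a, a BMP receptor, had a median of 6.39 points over 4 regions, and Smad4, the common signal transducer of the pathway, had -2.19 points with 5 of 5 regions lower. The lists were compiled with earlier results of these data known, so their direction is a description.

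Structural genes of the hair had medians nearer to 0. Keratin genes held 20 highly methylated regions, of which 6 were lower, with a median of 0.836 points. Krt31, a hair cortex keratin, had 3.94 points over 3 regions and Krt75, a companion layer keratin, 4.03 points over 3. Genes for desmosomes and for crosslinking of the hair shaft held 59 regions with a median of -0.276 points, from -2.52 points in Padi3, which converts arginine to citrulline, to 1.80 points in Dsp, the desmosomal linker to keratin. Krt14 itself held no highly methylated region.

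The methylation machinery's own genes were measured as well. Genes of DNA methylation and demethylation held 75 highly methylated regions with a median of 0.944 points. Tet2 held 8 with a median of 1.97 points and 1 of 8 lower, and Tet3 held 8 with a median of 3.62 points and 3 of 8 lower. In Tet3 the differences ran from -6.87 to 7.46 points. Tet1, which was not deleted, held 8 with a median of -1.16 points and 6 of 8 lower. Dnmt1 had -3.29 points with 4 of 4 lower, from -6.36 to -2.26 points. Dnmt3a had 0.712 points over 9 regions, Dnmt3b -5.35 points over 2 and Uhrf1 1.25 points over 3. These gene bodies thus differed in opposite directions, mostly by less than 2 spread estimates.

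Other lists stood near the middle. Histone and chromatin regulators held 158 regions with a median of 0.410 points, from -3.73 points in Nsd1, a histone H3 lysine methyltransferase, to 5.07 points in Arid1a, a SWI/SNF subunit. Arid1b held more of these regions than any other gene of the list. Most regions in Arid1b were higher in DKO and most of the others were lower, so the sign of this median rests on Arid1b. Cell cycle genes had 0.201 points over 50 regions, with Rb1 at 0.0711 points over 6 and Mki67, a proliferation marker, at 2.63 points over 4. Cdk6 held more of these regions than any other gene of the list. Most regions in Cdk6 were higher in DKO and most of the others were lower, so the sign of this median rests on Cdk6. Housekeeping genes had 0.217 points over 23 regions. Imprinted genes had -0.989 points over 36, with Grb10 at -1.92 and Gnas at 0.455 points. Germline genes had 0.281 points over 27 regions, with Ddx4 at -3.38 points over 3 and Tdrd1, a piRNA pathway gene, at 2.14 points over 6.

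Marker genes of other cells, which a sorted population could hold, were compared for the same reason. Melanocyte genes had a median of 0.0465 points over 51 regions, with Kit, the receptor for stem cell factor, at -3.12 and Dct, a melanin enzyme, at 1.44 points. Fibroblast and dermal papilla genes had -1.19 points over 38 regions, with Corin at -2.27 and Dcn at 3.13 points. Endothelial and muscle genes had -1.25 points over 59, with Cdh5 at -2.98 and Pecam1 at 3.32 points, both endothelial junction genes. Immune genes had -2.41 points over 16, with Ikzf1, a lymphoid transcription factor, at -4.12 points over 4. The immune regions lay at a median of 10.5 kb from large gains. Melanocyte regions lay at 2.42 kb, fibroblast and dermal papilla regions at 4.38 kb, and endothelial and muscle regions at 3.37 kb. The part of this distance was not tested. All 4 lists hold regions of high WT level by the rule, so they do not show how many such cells were present, and this was not tested.

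Genes of neurons and sensory cells had the lowest medians among the lists. Long neuronal genes, 20 of 20 with a region, held 490 with a median of -2.67 points, and 78.2% were lower in DKO. In Csmd1, which encodes a complement-regulating membrane protein, 10 of 10 regions were lower, with a median of -7.11 points and median levels of 83.3% in WT and 76.7% in DKO. Macrod2 was at the other end, with 0.766 points over 62 regions. Olfactory receptor genes held few highly methylated regions, 29 in 28 of 1104 genes, with a median of -4.43 points and 93.1% lower. Clustered protocadherins, cell-surface identity proteins of neurons whose genes overlap, shared 8 regions, all 8 lower, with a median of -5.13 points. The regions of these lists lay far from large gains, at medians of 12.3, 26.0 and 43.1 kb, where the regions of the genome at large were also lower, and the part of this distance was not tested.

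All 19 chromosomes had a negative median. The lowest was chromosome 8 at -1.36 points and the highest chromosome 11 at -0.453 points. On 19 of 19 chromosomes the median between genes was under the median inside genes. In 490 windows of 5 Mb with at least 20 highly methylated regions, 451 medians (92.0%) were negative. They ran from -6.59 points at 25 to 30 Mb on chromosome 1 to 1.23 points at 25 to 30 Mb on chromosome 16, so windows varied more than whole chromosomes did.

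**Figure D4:**
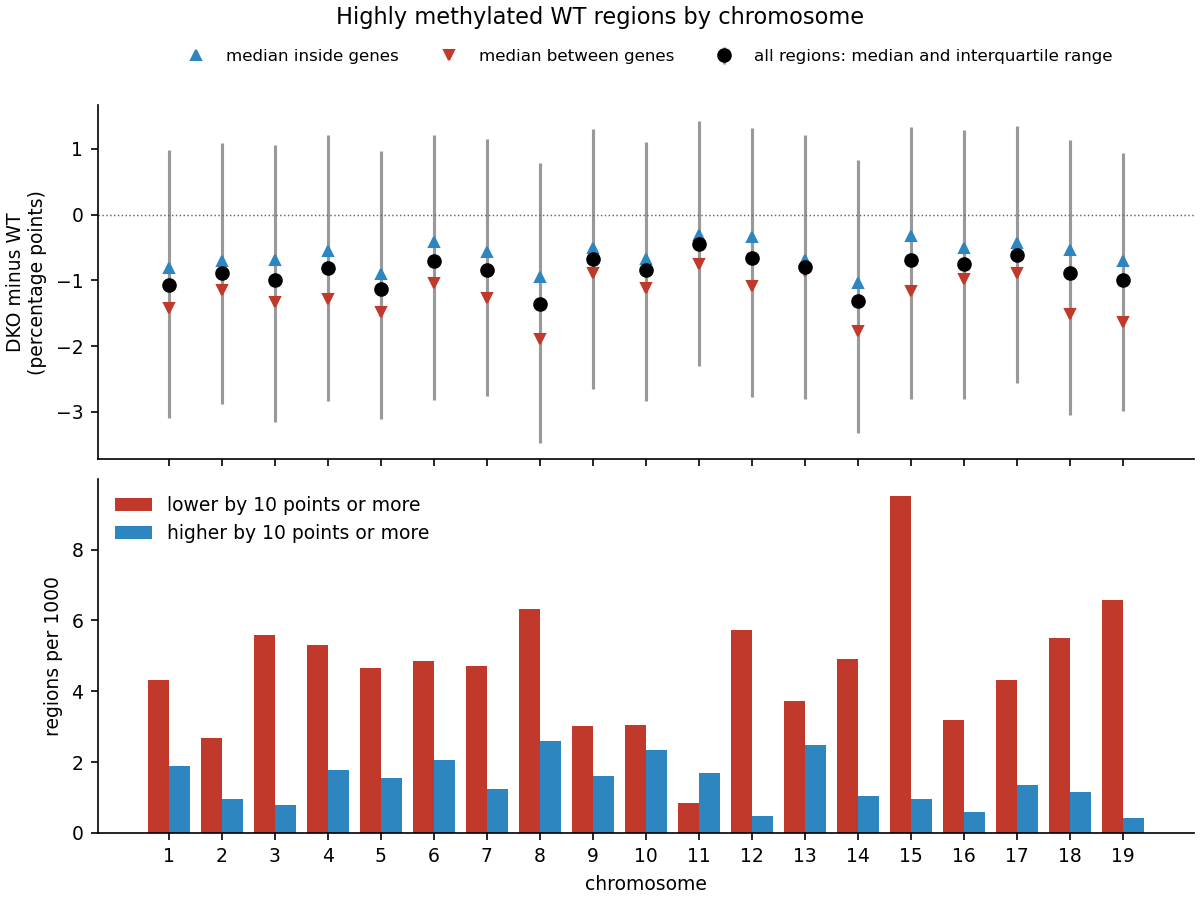
Top, median DKO minus WT difference (percentage points) of highly methylated regions on chromosomes 1 to 19 for all regions (circles, with the interquartile range as a line), inside genes and between genes (triangles); bottom, regions per 1000 that were lower or higher in DKO by 10 points or more. Medians between genes lie under those inside genes on all 19 chromosomes, and chromosome 15 has the most losses, 9.52 per 1000.

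Larger losses were few. Of the 92738 regions, 8627 (9.30%) were lower in DKO by 5 points or more (8.76% of all autosomal regions with at least 10 positions), and 3634 (3.92%) were higher by 5 points or more (35.2%). By 10 points or more, 418 (0.451%) were lower (0.676% of all) and 139 (0.150%) were higher (31.8%). Only 28 (0.0302%) were lower by 15 points or more, against 0.0568% of all autosomal regions with at least 10 positions. By 20 points or more, 3 (0.00323%) were lower, against 0.0104% of all. No region was higher by 20 points or more, against 29.7% of all, since the bound leaves no room for such a gain.

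Of the 418 regions lower by 10 points or more, 247 (59.1%) lay between genes, 166 inside and 5 near gene ends, whereas 42.9% of all highly methylated regions lay between genes. Their median level was 84.4% in WT and 72.8% in DKO. Their median distance from a gain of 20 points or more was 28.4 kb, against 3.78 kb over all. Of the 139 regions higher by 10 points or more, 63.3% lay inside genes and the median distance from a larger gain was 1.06 kb.

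Chromosome 15 held the most losses of 10 points or more per 1000 regions, 9.52, and chromosome 11 the fewest, 0.850, with a median over chromosomes of 4.71. The excess on chromosome 15 came from its start. The 565 regions below 15 Mb held 27 of the 418 losses, and 6 of the 28 losses of 15 points or more. The remaining 3636 regions of the chromosome held 13 losses of 10 points, and 88537 regions on all other autosomes held 378. The median difference below 15 Mb was -1.73 points, against -0.575 points over the rest of the chromosome. In the stretch from 14 to 15 Mb, 6 of 9 regions were lower by 10 points or more, and the median was -11.4 points. Without the regions below 15 Mb, chosen for this count after the values were seen, 391 losses of 10 points and 1 loss of 20 points or more were left. The 600 regions outside the highly methylated class in the same stretch had a median difference of 21.6 points, against 21.8 points over all autosomes. Losses were more frequent among them too: 14 (2.33%) were lower by 10 points or more, against 0.852% over all autosomes. By 15 points or more the shares were 0.333% and 0.0776%.

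The largest loss lay in a gene desert on chromosome 15. At chr15:14705373-14705701, 1529 kb from the nearest protein-coding gene, Cdh6, the authors' deposited table gives 81.0% in WT and 50.03% in DKO, a loss of 30.95 points with a spread estimate of 3.62. A further region whose nearest protein-coding gene is Cdh6, 1040.1 kb away at chr15:14216531-14216884, had 86.0% in WT and 68.2% in DKO in the authors' deposited table. Between genes at chr15:7556649-7557233, 158 kb from Egflam, an extracellular matrix gene, the levels in the authors' deposited table were 80.4% and 62.0%.

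Inside genes the largest losses of the same stretch lay in Il7r, Rictor and Adamts12. In Il7r, the interleukin 7 receptor of lymphocytes, the region at chr15:9521697-9521979 had 87.1% in WT and 65.2% in DKO in the authors' deposited table, a loss of 21.90 points. In Rictor, a subunit of the mTORC2 kinase complex, the region at chr15:6779916-6780797 had 26 positions, and its level in the authors' deposited table was 92.4% in WT and 73.1% in DKO. The 11 other highly methylated regions within 50 kb of it had a median difference of -2.51 points, from -8.46 to 0.50. In Adamts12, a secreted metalloprotease gene, the levels were 87.8% and 69.4% in the authors' deposited table. The Rictor and Il7r regions were lower than each of their highly methylated neighbours.

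The other 6 of the 12 largest losses lay on 6 other chromosomes. At chr1:164224489-164224621, 4.21 kb from F5, the gene of coagulation factor V, the level was 91.5% in WT and 68.1% in DKO in the authors' deposited table. Its 10 highly methylated neighbours within 50 kb had a median difference of 1.78 points, from -3.91 to 4.97, so the loss of this 133 bp region stood alone among them. In Tenm3, a synaptic adhesion gene on chromosome 8, the authors' deposited table gives 85.8% in WT and 67.3% in DKO. In Cadps, a gene of vesicle release on chromosome 14, it gives 89.4% and 71.8%, over 33 positions. Near Ntrk2, a neurotrophin receptor gene on chromosome 13, 48 positions were at 86.8% in WT and 69.1% in DKO in the authors' deposited table. Near Aebp2 on chromosome 6 the levels in the authors' deposited table were 83.5% and 65.7%. Near Prmt6 on chromosome 3, 885 kb away, they were 80.05% and 61.1%, with the highest spread estimate of the 12, 7.39 points. A loss of 17.38 points in Eya2, a developmental phosphatase on chromosome 2, was the sixth largest over a gene in the authors' deposited table. The regions of the 12 losses held 10 to 48 positions, and each loss was more than 2 spread estimates in size.

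**Figure D5:**
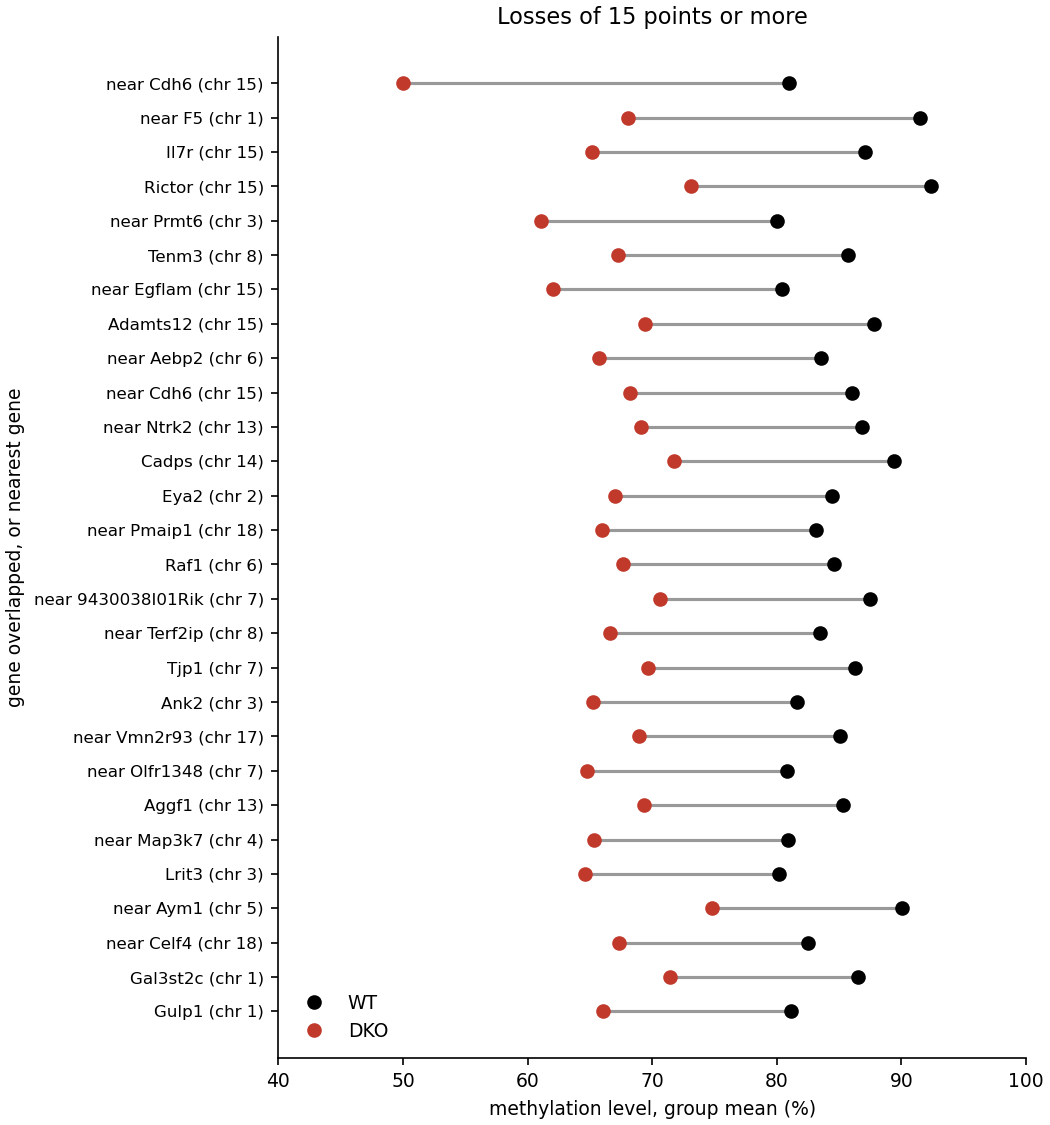
WT and DKO methylation levels (x axis, %) of the 28 highly methylated regions that were lower in DKO by 15 points or more, each on a line of its own with the gene overlapped or nearest; the line between the points is the loss. WT levels lie between 80.05% and 92.4%, and the region nearest Cdh6 with the largest loss reaches 50.03% in DKO.

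The largest gains were bounded by the space above the WT level, and the highest all began near 80%. Near Dusp6, a phosphatase that acts on ERK, the level was 80.1% in WT and 94.9% in DKO in the authors' deposited table. In Foxp1 the authors' deposited table gives 80.2% and 94.7%. In Gab1, an adaptor of receptor tyrosine kinases, regions at chr8:80828824-80829142 and chr8:80846862-80847340 were at 80.1% and 80.5% in WT and both at 93.6% in DKO in the authors' deposited table. In Sipa1l3 the levels were 80.6% and 93.9%, and in Farp1, a FERM domain exchange factor, 80.8% and 93.9%, both in the authors' deposited table. Gains of 20 points or more within 50 kb were counted here over regions with at least 10 positions only. Each of these 6 had between 10 and 17 of them, whereas the 12 largest losses had 0 to 5.

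The longest regions and those with the most positions differed little. The longest, 5186 bp in the circadian gene Per2, was at 88.1% in WT and 90.7% in DKO in the authors' deposited table. In Pm20d1 a region of 5170 bp was at 89.0% and 89.4%, near the zinc transporter gene Slc30a1 one of 4782 bp was at 83.9% and 81.2%, and in Ctdspl one of 4777 bp, which holds Mir26a-1, had levels of 80.02% and 81.6% there. The region with the most positions, 325 in Bcl11b, was at 94.5% in WT and 94.9% in DKO in the authors' deposited table. In Fat1, an atypical cadherin gene, 290 positions were at 94.2% and 96.3%. In Zfhx3, 286 positions were at 93.6% and 93.4%, and in Sbk1, 273 were at 90.1% and 91.6% in the authors' deposited table. The 4 densest regions, in which every base was a measured position, were 10 to 12 bp long. Those at Arhgef2, Cltc and Zfp532 differed by 0.992, -0.747 and 1.84 points, and the region in Stxbp5l differed by -4.80 points in the authors' deposited table. Over the 4 longest regions and the 4 with the most positions, the differences ran from -2.74 to 2.60 points, each smaller than the region's spread estimate.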

How the data were processed

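Levels came from whole-genome bisulfite sequencing of sorted hair matrix keratinocytes, with 2 WT and 2 DKO libraries assigned to groups by their labelled genotype. Trim Galore and Bismark were used on the reads, with GRCm38 (mm10) as the build, per the submitters' processing notes. The region caller was not given in the sources used here. Deposited by the authors was 1 table of regions. Per the file headers it gives each group's mean level as a fraction from 0 to 1, turned here into percent. A statistic and a spread estimate, per the file headers, were read as a score without a set range. The deposited table names no group. Which group is WT was read from the genotype order in its title, and every direction rests on that. Depth, intervals and replicate error are unknown, because neither reads nor single libraries are given, and no test was run.

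Genes came from a RefSeq table of GRCm38.p6, and start windows, strands and miRNAs from RefSeq sequence tables of that build. No genome sequence was used, so exons and other region sequences were not analysed here. Regions were classed as within 1 kb of a protein-coding gene's end, inside a gene or between genes. The code for classes and distances was checked against a direct search on a random sample of the real regions. Only the differences used in that check were simulated. Of the genes, those named are the 12 largest losses, the 6 largest gains, the 4 longest, the 4 with most positions, the 4 densest, the 8 genes with most regions, the 6 largest losses and 4 largest gains over genes, the lowest and highest gene of each list with at least 3 regions, and the Tet, Dnmt, Uhrf1 and Krt14 genes. Start windows and miRNAs were chosen after their values were seen. The regions and lists were chosen with earlier results of these data known. Python 3.11.15, pandas 2.3.3, numpy 2.4.6, scipy 1.17.1 and matplotlib 3.10.9 were used.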

Additional observations from a re-analysis of the deposited data

How the results depend on the processing

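The median difference over all highly methylated regions kept its sign under 10 alternatives (-1.11 to -0.471 points), inside genes under 11 (-0.904 to -0.293), between genes under 12 (-1.58 to -0.298) and near gene ends under 12 (-1.28 to -0.665). With the 80% bound set on the DKO level it turned to 0.800 over all regions, 0.954 inside, 0.606 between and 0.486 near ends, and with the statistic's farther bound for both signs it turned to 0.159 over all regions and 0.616 inside. The gap between the classes of 1 to 2 and of 5 or more positions per 100 bp, 0.855 points, stayed between 0.200 (at least 20 positions) and 1.19, and the range over chromosomes, 0.903 points, between 0.545 and 2.04, each under 12 alternatives. The number of regions was 60783 with a WT bound of 85%, 21933 with 90%, 39901 with at least 20 positions, 56631 with at least 500 bp and 4224 with the farther bound. The share lower in DKO was 41.5% with the DKO bound, 61.9% with a WT bound of 75% and 61.9% with 85%, 68.7% with 90%, 56.6% with at least 20 positions, 63.9% with at least 5, 60.3% with at least 500 bp, 56.4% with the bound on the mean of both genotypes, 64.1% with neighbours joined and 48.4% with the farther bound. Losses of 20 points or more numbered 5 with a WT bound of 75%, 1 with 90%, 8 with at least 5 positions, 1 without chromosome 15 below 15 Mb, and 0 with the DKO bound, at least 20 positions, at least 500 bp, the mean of both genotypes or neighbours joined, against 418 of 10 points and 28 of 15 points. The share of 10-point losses between genes was 70.4% with the DKO bound, 52.2% with all genes counted, 47.8% with at least 20 positions, 70.0% with at least 5, 66.7% for losses of 20 points, 66.5% with neighbours joined and 48.3% with the farther bound. Alternatives with fewer regions kept or other selection of the level change the count by construction, and the cause of the other changes was not tested. No paired analysis was possible because the table holds no values per library, and for the same reason leaving out each replicate could not be run. Depth is unknown, so it sets no limit that can be stated here. Leaving out chromosome 15 below 15 Mb was chosen after seeing the data.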
